A study of Mus musculus with 6 samples.

Results

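The transcripts described here are those of the nuclear-encoded subunits of the mitochondrial respiratory chain and ATP synthase, in endothelial cells sorted from mouse lungs at postnatal day 7. Members were taken by gene symbol alone: Nduf genes of the a, b, c, s and v series, the 4 Sdh genes, Uqcr genes, Cox genes of the 4 to 8 series and Atp5 genes. Subunits with other names, such as Cyc1 of complex III and Usmg5 of complex V, are therefore not members. Of the 23793 rows of the expression table, 84 matched, and 83 of these had a mean above 0; the remaining one, Cox8c, was at 0 in every library. By role, 74 members are counted as general subunits used in most cells, 35 in complex I, 4 in complex II, 8 in complex III, 12 in complex IV and 15 in complex V. The 12 of complex IV include Cox7a2l, a factor of supercomplexes (assemblies of several complexes) rather than an accessory subunit. A further 7 are tissue forms, paralogs of a general complex IV subunit with a narrower range of tissues. The last 2, Atp5s and Atp5sl, carry the Atp5 name but are not subunits of the enzyme.

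The respiratory chain sits in the inner mitochondrial membrane. Complex I takes electrons from NADH and complex II from succinate, complex III passes them to cytochrome c, and complex IV (cytochrome c oxidase) hands them to oxygen; complexes I, III and IV pump protons, and complex V (ATP synthase) uses the return flow to make ATP. Endothelial cells draw much of their ATP from glycolysis, while their respiration is known to matter for redox balance and for proliferation.

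Libraries of poly(A) RNA were made from 3 mutant and 3 control samples, lettered A to C within a group, to find out what differs in the endothelium of mutant lungs. Titles of both groups name Vegfa and Shh, and all mice had a mixed strain background. The labels leave the alleles unnamed. Levels are given in FPKM, which divides the fragments of a transcript by its length and by the depth of its library, so different genes can be roughly compared. Same-letter libraries are treated as pairs in some values, because their deviations from the group means correlated. The labels do not state such a pairing.

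As background on the samples, the endothelial markers Pecam1 and Cdh5, which encode junction proteins of vessel lining cells, stood at 728 to 894 and 1050 to 1140 FPKM in the mutant libraries, against 737 to 928 and 1080 to 1310 FPKM in the control libraries. The 12 pan-endothelial markers summed to 5480 to 6020 FPKM in mutant and 6670 to 7550 FPKM in control libraries. Of these 12, 5 had a higher and 7 a lower mean in mutant, with a median log2 fold change of -0.06, and the tight junction gene Cldn5 differed most, at 1070 FPKM in mutant and 2190 FPKM in control. Total fragment numbers are unknown; the steps between very low values put the relative depth between 0.897 in control C and 1.49 in mutant C, with control A as 1. Of the 11693 rows that averaged 1 FPKM or more, 16 rows, or 0.137%, were lower and 0 were higher in mutant at an adjusted p under 0.05 in limma, while 502 and 445 rows, together 8.1%, had an unadjusted p under 0.05 in those directions. Of 26 symbols searched for transcripts encoded by mitochondrial DNA, 0 were in the expression table, so those transcripts were not analysed.

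Promoters of members are shown first, because many respiratory genes are known to carry sites for a few general activators. RefSeq windows on GRCm38.p6, from 250 bases before to 50 bases after the start, were found for 63 of the 74 general subunits. NRF1, a factor long linked to respiratory gene expression, was searched as GCGCANGCG on both strands. The ETS core, bound among others by GABP, was searched as CCGGAAG, YY1 as AAGATGGC and the estrogen-related receptors (ERR) as TCAAGGTCA. In the 6 windows printed, chosen to show the NRF1 motif in each of complexes I to V and a member without any, capitals mark matches to these 4 motifs:
Ndufa11 (chr17:56717512-56717811, plus strand): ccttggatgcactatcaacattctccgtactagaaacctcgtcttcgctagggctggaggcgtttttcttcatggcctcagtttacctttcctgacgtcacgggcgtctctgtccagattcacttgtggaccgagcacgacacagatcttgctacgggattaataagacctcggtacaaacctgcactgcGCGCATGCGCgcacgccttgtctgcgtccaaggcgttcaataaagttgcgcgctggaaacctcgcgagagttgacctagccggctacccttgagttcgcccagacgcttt
Sdhd (chr9:50603800-50604099, minus strand): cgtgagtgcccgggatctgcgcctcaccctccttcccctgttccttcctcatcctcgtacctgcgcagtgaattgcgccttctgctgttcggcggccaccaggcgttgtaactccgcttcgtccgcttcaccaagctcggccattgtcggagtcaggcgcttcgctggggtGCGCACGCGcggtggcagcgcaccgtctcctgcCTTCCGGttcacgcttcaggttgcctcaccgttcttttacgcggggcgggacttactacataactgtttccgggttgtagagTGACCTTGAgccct
Uqcr11 (chr10:80406772-80407071, minus strand): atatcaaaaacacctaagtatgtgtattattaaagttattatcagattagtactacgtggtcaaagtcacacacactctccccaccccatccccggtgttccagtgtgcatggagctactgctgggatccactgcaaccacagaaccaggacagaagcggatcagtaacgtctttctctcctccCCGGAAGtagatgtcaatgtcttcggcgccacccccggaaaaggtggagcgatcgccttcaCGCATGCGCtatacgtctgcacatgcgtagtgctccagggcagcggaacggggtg
Cox6a1 (chr5:115348909-115349208, minus strand): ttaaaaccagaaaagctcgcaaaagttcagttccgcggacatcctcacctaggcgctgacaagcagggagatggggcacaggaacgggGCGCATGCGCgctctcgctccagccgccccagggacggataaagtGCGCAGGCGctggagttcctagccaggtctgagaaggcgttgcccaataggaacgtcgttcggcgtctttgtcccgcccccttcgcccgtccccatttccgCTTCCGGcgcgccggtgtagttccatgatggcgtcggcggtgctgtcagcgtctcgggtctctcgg
Atp5g2 (chr15:102670998-102671297, minus strand): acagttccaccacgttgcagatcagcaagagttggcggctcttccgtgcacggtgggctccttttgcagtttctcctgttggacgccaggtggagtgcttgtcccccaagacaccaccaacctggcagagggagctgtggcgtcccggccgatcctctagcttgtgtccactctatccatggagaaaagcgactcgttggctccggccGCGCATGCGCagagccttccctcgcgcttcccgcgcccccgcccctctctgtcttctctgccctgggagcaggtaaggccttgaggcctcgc
Ndufa4 (chr6:11907401-11907700, minus strand): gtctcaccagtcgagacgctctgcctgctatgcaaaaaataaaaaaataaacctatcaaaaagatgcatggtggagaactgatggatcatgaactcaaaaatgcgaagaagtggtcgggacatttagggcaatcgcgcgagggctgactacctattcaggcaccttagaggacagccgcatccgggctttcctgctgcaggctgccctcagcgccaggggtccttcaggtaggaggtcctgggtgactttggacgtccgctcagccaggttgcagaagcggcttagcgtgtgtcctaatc

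The NRF1 motif stood in 20 of the 63 subunit promoters, or 31.7%, against 15.9% of the 9368 tested genes with a window and 7.03% of all 27025 genes with one. The palindromes in Ndufa11, Cox6a1 and Atp5g2 match on both strands and so hold 2 overlapping matches each. The YY1 motif was in 15.9% of subunit promoters, against 5.53% of tested genes, and the ETS core in 25.4%, against 20.9%. The ERR motif was in 2 subunit promoters, or 3.17%, one of them Sdhd, against 0.32% of tested genes.

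The other searched motifs were not more frequent in the subunits than in tested genes. The SP box GGGGCGGGG stood in 15.9% of subunit promoters against 25.8% of tested genes, and CCAAT in 41.3% against 42.9%. The TATA box, TATAAA, was in 7.94% against 8.63%, and the hypoxia response core ACGTG in 23.8% against 29.5%. Subunit windows had a median GC content of 58.3% and a median of 19 CpG, against 61.2% and 21 in tested genes. The Ndufa4 window held none of the 4 motifs marked in capitals, which says only that these letters are not in it. All of these shares are descriptions, and a match is not a shown binding site.

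General subunits were among the more abundant transcripts of the sorted cells. All 74 lay above the median of all tested rows, 12.7 FPKM, and 46 lay above the 90th percentile, 67.0 FPKM. Their mean levels over the 6 libraries ran from 14 FPKM for Ndufa11, an accessory subunit of the complex I membrane arm, to 380 FPKM for Cox4i1, the general form of subunit 4 of cytochrome c oxidase. The median subunit stood at 59.3 FPKM in complex I and 61.7 FPKM in complex II. In complexes III, IV and V it stood at 122, 168 and 167 FPKM.

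Levels also differed within a complex. The longest transcripts of general subunits ran from 371 to 4715 nt, and the part of length in these levels was not tested. In complex III the 5 accessory members were at 122 to 155 FPKM. The 3 core and catalytic members, Uqcrc1, Uqcrc2 and the Rieske iron-sulfur protein Uqcrfs1, were at 49.4 to 94.8 FPKM. In complex I the 7 catalytic core subunits were at 21.6 to 77.8 FPKM and the 28 accessory ones at 14 to 159 FPKM, the highest being Ndufa3. In complex V the catalytic beta subunit Atp5b was highest at 331 FPKM, and Atp5g1, 1 of 3 genes for the c subunit of the membrane ring, was lowest at 55.6 FPKM. The same mature c protein is encoded by Atp5g2, at 188 FPKM, and Atp5g3, at 167 FPKM. The 2 Atp5-named genes that are not subunits were far lower, Atp5s at 2.52 FPKM and Atp5sl at 9.69 FPKM.

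Replicates lay close together for these genes. The SD over the 3 libraries was a median of 10% of the mean in mutant and 6.91% in control for general subunits, against 13.7% and 11.8% for all tested rows.

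**Figure D1:**
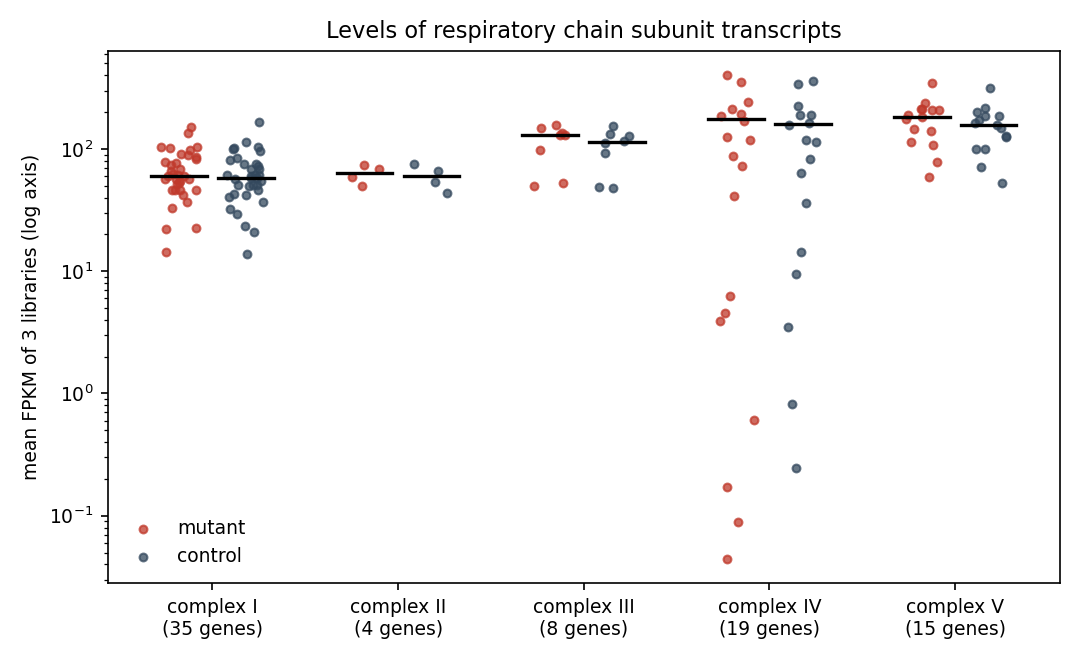
Mean FPKM of 3 libraries (log axis) of each member by complex, mutant left of control; black bars are the median of the general subunits, and means of 0 cannot be drawn on a log axis. The general subunits sit between 13.8 and 403 FPKM over both groups, and the low points in complex IV are the tissue forms.

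Between mutant and control, no member passed the adjusted threshold in limma. Of the 83 members, 79 averaged 1 FPKM or more and were tested, while Cox7a1, Cox8b, Cox6a2 and Cox7b2 stayed below that level. Among the 79, 2 were lower and 1 was higher in mutant at an unadjusted p under 0.05, against 4.29% and 3.81% of all tested rows, and the smallest adjusted p was 0.525. The 2 lower ones were the tissue forms Cox4i2 and Ndufa4l2, and the higher one was Atp5g2. With the pair as a block, 0 members passed the adjusted threshold, against 0.0513% of all rows, and 4 members, these 3 and Ndufs5, had an unadjusted p under 0.05, against 12.3% of all rows. A fold change above 0.5 in size on the log2(FPKM + 1) scale was seen for 2 members, Cox4i2 and Ndufa4l2, and for 7.92% of all tested rows. The count of 0 in this test does not show that the groups were alike, since the median SE of a member's log2 fold change was 0.12.

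Small differences of the same sign ran through the general subunits. Their mean was higher in mutant for 66 of 74, against 54.6% of all tested rows, with a median log2 fold change of 0.11 and a range of -0.09 to 0.38. The median over all tested rows was 0.02. Members come from the same 6 libraries and are not independent, so this count carries no p. Over the 79 tested members the mean was higher in mutant for 68, for 66 after median-of-ratios rescaling and for 64 after quantile normalization, with medians of 0.11, 0.099 and 0.085.

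The difference lay largely in mutant C. Without it, the median log2 fold change of the tested members was 0.016, with 46 of 79 means higher in mutant, and that of all tested rows was -0.001. Without it, the general subunits had a median of 0.03, with 45 of 74 means higher. Within pairs, the median difference of the general subunits was -0.01 in pair A, 0.08 in pair B and 0.25 in pair C, against 0.00, 0.02 and 0.03 for all tested rows. Mutant C was the highest of the 6 libraries for 58 of the 74 general subunits, and for 28.1% of all tested rows. Control A was the highest for 8 subunits, mutant A for 6 and mutant B for 2, while controls B and C were the highest for none.

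**Figure D2:**
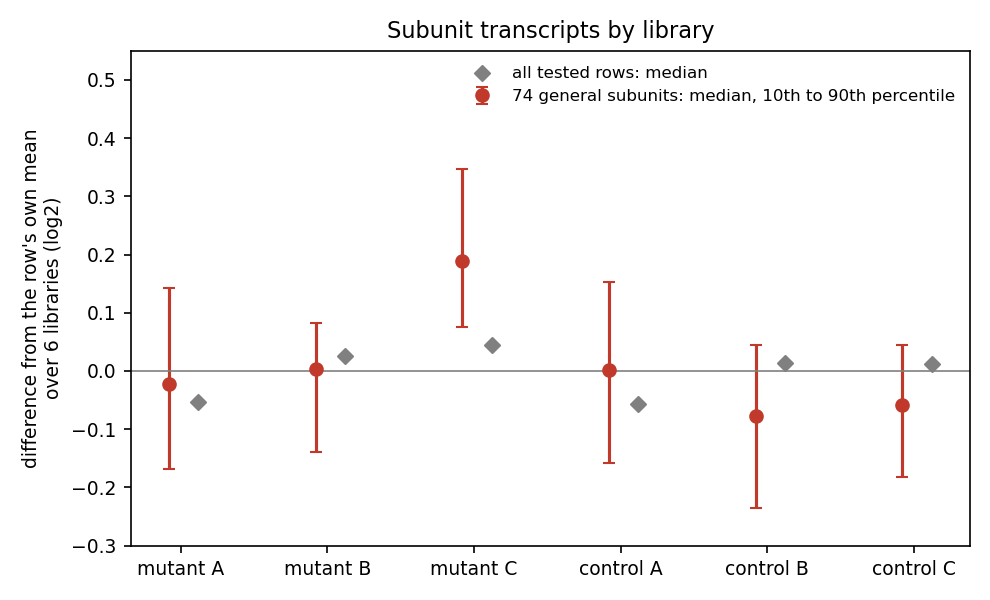
Median difference of the 74 general subunits from each gene's own mean over the 6 libraries (log2; bars from the 10th to the 90th percentile), with the median of all tested rows as grey diamonds; mutant libraries left of control libraries. Mutant C stands at 0.189, while the other 5 libraries lie between -0.077 and 0.003.

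Summed over general subunits, FPKM was 7700, 7870 and 9330 in mutant libraries A to C, against 7900, 7460 and 7560 in control libraries A to C. Mutants A and B lay within the control range and mutant C lay above it. The means were 8300 ± 897 FPKM in mutant and 7640 ± 229 FPKM in control (SD, n = 3 each), a log2 ratio of 0.12. In bulk samples, fewer cells of a type and less RNA per cell cannot be told apart, so a sum of this kind mixes both.

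Other gene groups stood high in the same library. The 54 tested genes of the cytosolic ribosome summed to 33300, 29500 and 45100 FPKM in mutant libraries A to C, against 29900, 28600 and 29600 FPKM in the controls. All 54 had a higher mean in mutant (53 after quantile normalization, 50 without mutant C), with a median log2 fold change of 0.27 (0.14 and 0.10 in those settings) and pair medians of 0.15, 0.05 and 0.59, and 0 passed the adjusted threshold or an unadjusted p of 0.05 in limma. Short transcripts were also high in mutant C: rows that are no general subunit and whose longest transcript is at most 750 nt had a median deviation of 0.15 there, against 0.06 for 1500 to 3000 nt and 0.02 for 3000 to 6000 nt. General subunits are short, with a median of 892 nt against 3180 nt for all tested rows that have a length. Their own median deviation in mutant C was 0.21 up to 750 nt (29 genes), 0.18 from 750 to 1500 nt (26 genes) and 0.16 from 1500 to 3000 nt (16 genes), where that of other rows was 0.15, 0.12 and 0.06. The part of transcript length and of depth in the members' values was not tested.

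By complex, the median log2 fold change of the general subunits was 0.08 in complex I, 0.10 in complexes II and III, 0.11 in complex IV and 0.14 in complex V, and without mutant C it was 0.01 to 0.05. In complex I, 28 of 35 means were higher in mutant, or 20 of 35 without mutant C, with sums of 2340 ± 178 FPKM in mutant and 2210 ± 54.7 FPKM in control (SD, n = 3 each). Ndufa10 and Ndufv1 were among the members of lowest p in this complex. Ndufv1, the core subunit that binds NADH, had 54.1, 56.4 and 59.6 FPKM in mutant libraries A to C, against 47.8, 52.3 and 50.8 FPKM in control libraries A to C (log2 fold change 0.17 ± 0.09 SE, limma adjusted p = 0.695). Its mutant libraries lay above all control libraries. Ndufa10, an accessory subunit, had 45.6, 43.5 and 50.3 FPKM in mutants, against 43.6, 37.7 and 39.2 FPKM in controls, and its groups overlapped.

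The abundant Ndufa3 ran the other way in its mean, at 152 ± 14.9 FPKM in mutant and 165 ± 35.3 FPKM in control, with a log2 fold change of -0.09 ± 0.17. Ndufa11, the least abundant, was at 14.3 ± 1.27 and 13.8 ± 1.34 FPKM in mutant and control. Ndufs5, an accessory subunit in the intermembrane space, was higher in mutant in all 3 pairs, at 0.26, 0.36 and 0.27, while its groups overlapped; with the pair as a block its unadjusted p was 0.0143 and its limma adjusted p 0.33. Ndufs5 is named after its values were seen.

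In complex II, the enzyme shared with the citric acid cycle, 3 of 4 means were higher in mutant, and the subunits summed to 252 ± 19.4 FPKM in mutant and 239 ± 7.33 FPKM in control. Sdhd, which anchors the enzyme in the membrane, had 50.6, 47.3 and 52.4 FPKM in mutant libraries A to C, against 46.8, 41.0 and 43.1 FPKM in control libraries A to C (0.20 ± 0.09, limma adjusted p = 0.657). Sdha, the flavoprotein subunit, had 56.5, 59.0 and 62.4 FPKM in mutants, against 54.9, 54.5 and 51.3 FPKM in controls. The mutant libraries were above all control libraries for both. Sdhb, the iron-sulfur subunit, was at 74.4 ± 8.62 and 75.9 ± 3.92 FPKM in mutant and control, and Sdhc at 68.3 ± 6.14 and 65.8 ± 2.30 FPKM, with overlapping groups.

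All 8 complex III members had a higher mean in mutant, or 7 after quantile normalization and 5 without mutant C. Their median log2 fold change was 0.10, with a pair C median of 0.24. Uqcr11, a small accessory subunit, had 114, 125 and 154 FPKM in mutant libraries A to C, against 116, 112 and 109 FPKM in control libraries A to C (0.21 ± 0.13, limma adjusted p = 0.737). Its groups overlapped because mutant A lay among the controls. Uqcrb, the most abundant, and Uqcrfs1, the least, differed by 0.03 ± 0.15 and 0.04 ± 0.10, and Uqcrb was below 0 after quantile normalization. Uqcrc2 and Uqcrq differed by 0.13 ± 0.12 and 0.14 ± 0.14.

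In complex V all 15 general subunits had a higher mean in mutant, also under either rescaling, or 11 without mutant C, with log2 fold changes from 0.07 to 0.38 and a median of 0.14. The sums were 2610 ± 362 FPKM in mutant and 2320 ± 90.2 FPKM in control. Atp5g2 had 205, 196 and 234 FPKM in mutant libraries A to C, against 189, 133 and 169 FPKM in control libraries A to C. Every mutant library lay above every control library for Atp5g2, mutant B and control A being the closest. The means were 212 ± 20.1 FPKM in mutant and 164 ± 28.2 FPKM in control (SD, n = 3 each), with a log2 fold change of 0.38 ± 0.16, a limma unadjusted p of 0.0462 and an adjusted p of 0.617. Without control B, the library lowest for this gene, the log2 fold change was 0.24. The other 2 genes for the same mature c protein, Atp5g1 and Atp5g3, differed by 0.16 ± 0.12 and 0.15 ± 0.13. Atp5j and Atp5o, which belong to the peripheral stalk, differed by 0.18 ± 0.11 and 0.17 ± 0.12, and Atp5b by 0.14 ± 0.12. Atp5g2 lies on mouse chromosome 15, from 102662868 to 102671047 (GRCm38.p6).

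**Figure D3:**
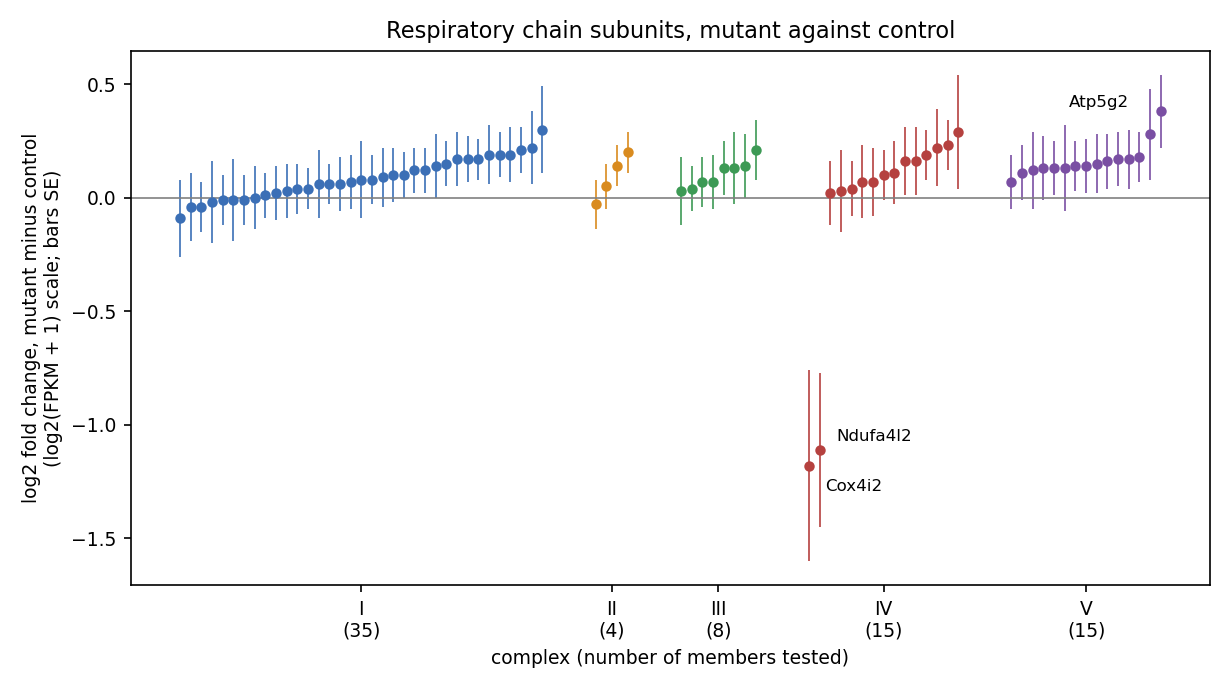
Log2 fold change of mutant minus control for the tested members of complexes I to V, on the log2(FPKM + 1) scale, ordered by size within a complex; vertical bars are the SE, and colours mark the complex. Most points lie a little above 0, between -0.09 and 0.38, while Cox4i2 and Ndufa4l2 lie near -1.18 and -1.11.

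Across all 79 tested members, the mutant libraries lay above all controls for 7, among them Ndufb8, Ndufv1, Sdha, Sdhd, Cox5b and Atp5g2, and below all controls for 1, Ndufa4l2. All tested rows showed these patterns at 7.12% and 6.57%. In the same direction in all 3 pairs were 22 members higher in mutant and 2 lower, against 19.6% and 17.2% of all tested rows. In the authors' deposited table, 4 members have a p under 0.05, without adjustment, against 7.53% of all 14338 rows with a value there. Of these in the authors' deposited table, Ndufa4l2 is lower in mutant, with a log2 fold change of -1.33, and Ndufb9, Ndufs5 and Ndufv1 are higher, at 0.10, 0.30 and 0.17.

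In complex IV the log2 fold changes of the general subunits ran from 0.02 to 0.23. Summed, they gave 2200 ± 253 FPKM in mutant and 2040 ± 56.0 FPKM in control, and all 12 had a higher mean in mutant, or 10 after quantile normalization and 7 without mutant C. Cox5b, which lies on the matrix side of the enzyme, had 178, 173 and 206 FPKM in mutant libraries A to C, against 166, 150 and 157 FPKM in control libraries A to C (0.23 ± 0.11, limma adjusted p = 0.665), with no overlap. Cox4i1 was at 355, 372 and 482 FPKM in mutant libraries A to C, against 342, 367 and 362 FPKM in control libraries A to C, a difference of 0.16 ± 0.15 that lay in mutant C. Ndufa4, once counted to complex I and now to complex IV, had 254, 218 and 250 FPKM in mutants, against 260, 196 and 214 FPKM in controls. Cox6a1, Cox6b1, Cox7a2, Cox7b and Cox8a, the general partners of the remaining tissue forms, differed by 0.02 to 0.22, with Cox6a1 and Cox8a below 0 after quantile normalization.

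The largest differences among tested members belonged to Cox4i2 and Ndufa4l2, both tissue forms. Cox4i2, a form of subunit 4 known for its expression in lung and for oxygen sensing in the pulmonary circulation, had 4.94, 10.8 and 2.96 FPKM in mutant libraries A to C, against 9.23, 14.4 and 19.4 FPKM in control libraries A to C. Each mutant library was below its own pair partner, but mutant B was above control A, so the groups overlapped. The means were 6.22 ± 4.05 FPKM in mutant and 14.3 ± 5.09 FPKM in control (SD, n = 3 each). The log2 fold change was -1.18 ± 0.42, with a limma unadjusted p of 0.0276 and an adjusted p of 0.586. Without mutant C it was -0.82 and without mutant B -1.61. Cox4i2 lies on chromosome 2, from 152753916 to 152765039.

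Ndufa4l2, a paralog of Ndufa4 known as a target of hypoxia-inducible factor, had 2.03, 5.27 and 4.38 FPKM in mutant libraries A to C, against 6.06, 9.44 and 12.9 FPKM in control libraries A to C. All mutant libraries lay below all control libraries. The means were 3.89 ± 1.68 FPKM in mutant and 9.47 ± 3.42 FPKM in control (SD, n = 3 each), with a log2 fold change of -1.11 ± 0.34, a limma unadjusted p of 0.0144 and an adjusted p of 0.525. With the pair as a block, the unadjusted p was 0.000688 and the adjusted p 0.152. Ndufa4l2 lies on chromosome 10, from 127509274 to 127517154.

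Set against its general partner, each of these forms was a minor one. Cox4i2 reached 1.39%, 2.89% and 0.614% of the Cox4i1 level in mutant libraries A to C, against 2.70%, 3.93% and 5.36% in control libraries A to C. Ndufa4l2 reached 0.80%, 2.42% and 1.75% of Ndufa4 in mutants, against 2.33%, 4.83% and 6.03% in controls. The log2 ratio to the general form, with 0.1 FPKM added to both, differed, mutant minus control, by a mean of -1.49 for Cox4i2 and -1.41 for Ndufa4l2. For Cox4i2 it was -0.93 without mutant C and -2.03 without mutant B, and for Ndufa4l2 leaving out 1 library gave -1.82 to -0.97. Each had an exact two-sided permutation p of 0.2, or 0.5 when adjusted over the 5 pairs compared, in a design where the smallest possible p is 0.1.

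The remaining tissue forms were low. Cox6b2, known from testis, had 4.11, 6.35 and 3.29 FPKM in mutant libraries A to C, against 3.08, 2.73 and 4.77 FPKM in control libraries A to C (0.29 ± 0.25, limma adjusted p = 0.809). Cox7a1, the heart and skeletal muscle form, had 0.344, 0.543 and 0.944 FPKM in mutants, against 1.65, 0.816 and 0 FPKM in controls. Cox8b, a muscle and brown fat form, was at or below 0.276 FPKM in mutants and 0.408 FPKM in controls, and was listed at 0 in mutant A and control B. Cox6a2 was above 0 only in mutant C, at 0.268 FPKM, and Cox7b2 only in mutant B, at 0.133 FPKM. Markers of heart and skeletal muscle, where Cox7a1 and Cox8b are known to be high, summed to 18.2 to 20.1 FPKM over 12 genes in mutant libraries and 19.4 to 28.1 FPKM in control libraries. The ratios of Cox6b2, Cox7a1 and Cox8b to their general forms differed by 0.19, 0.07 and -0.28, with exact permutation p of 0.7, 1 and 0.6.

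Markers of pericytes and smooth muscle, the mural cells of vessels, were lower in mean alongside both of these tissue forms. The lower mean held for all tested markers without mutant C as well. The 12 markers summed to 95.4, 320 and 172 FPKM in mutant libraries A to C, a range of 95.4 to 320 FPKM, against 165, 340 and 393 FPKM in control libraries A to C, a range of 165 to 393 FPKM. None of the 12 was at 0 in all libraries. Of the 11 pericyte and smooth muscle markers that were tested, 11 had a lower mean in mutant, as did 5308 of the 11693 tested rows. Of the 11, 3 had an unadjusted p under 0.05 in limma, against 4.29% of all tested rows lower at that level. None passed the adjusted threshold, and the median log2 fold change was -0.67. Pdgfrb, a PDGF receptor used as a pericyte marker, had 5.88, 15.6 and 8.34 FPKM in mutant libraries A to C, against 12.5, 26.7 and 33.2 FPKM in control libraries A to C (-1.20 ± 0.43, limma adjusted p = 0.586). Its log2 fold change was the largest in size among the 11, which ran from -1.20 to -0.25. The pair medians of the 11 were -0.75, -0.16 and -1.08, where Cox4i2 had -0.78, -0.39 and -2.37 and Ndufa4l2 had -1.22, -0.74 and -1.37.

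Divided by the marker sum, Cox4i2 had log2 ratios of -4.27, -4.90 and -5.86 in mutant libraries A to C, against -4.16, -4.56 and -4.34 in control libraries A to C. Ndufa4l2 had -5.56, -5.92 and -5.29 in mutants, against -4.77, -5.17 and -4.93 in controls. Mean differences were -0.65 and -0.63, with overlapping groups for Cox4i2 and all mutants below all controls for Ndufa4l2. The sum gives most weight to its most abundant genes: the smooth muscle genes Acta2 and Tagln averaged 105 FPKM each in control. Their log2 fold changes were -0.67 and -0.55, against -1.20 for Pdgfrb, so these ratios depend on the markers chosen. Fibroblast markers, another mesenchymal group, summed to 246, 1110 and 455 FPKM in the mutants and to 302, 1140 and 1000 FPKM in the controls. Lower means were not particular to mural markers. All 8 markers of Car4-high capillary cells and all 4 tested erythroid and platelet markers had lower means in mutant. Their median log2 fold changes were -2.05 and -1.16, with pair medians of -2.54, -1.48 and -2.64, and of -1.34, -0.29 and -1.48. Lower means were seen for 5 of 7 tested epithelial, 3 of 6 fibroblast and 2 of 6 general capillary markers. The part of mural or other cells in the levels of Cox4i2 and Ndufa4l2 was not tested.

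**Figure D4:**
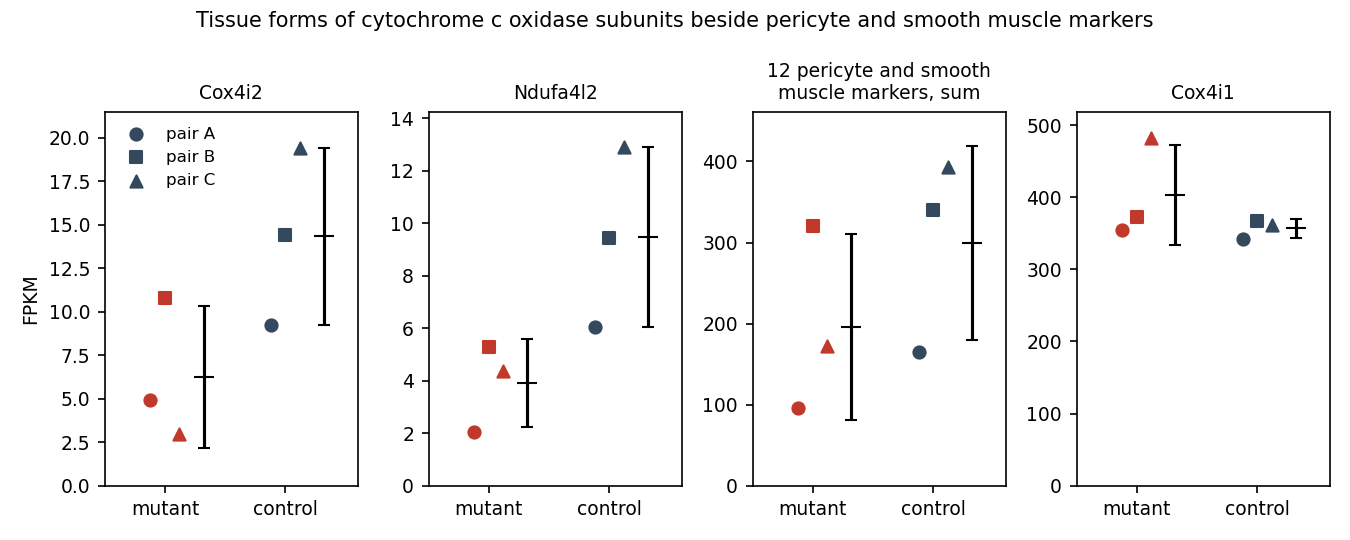
FPKM in each library of Cox4i2, Ndufa4l2, the sum of 12 pericyte and smooth muscle markers, and Cox4i1, mutant left of control; symbols mark pairs A, B and C, and black bars are the mean ± SD of 3 libraries. Cox4i2, Ndufa4l2 and the marker sum have lower means in mutant, while Cox4i1 is at 342 to 372 FPKM in 5 libraries and at 482 FPKM in mutant C.

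Other genes that build or feed the chain were described from lists chosen from general knowledge. In the following lists, 0 genes passed the adjusted threshold. For comparison, 54.6% of all tested rows had a higher mean in mutant. A mixed list of other respiratory chain proteins held electron carriers such as Cycs, but also Cyc1, Usmg5, Coq9 and the ATP synthase inhibitor Atpif1. It had 9 of 12 means higher in mutant, with a median of 0.06 and 0 at an unadjusted p under 0.05 in limma. Without mutant C, 6 of 12 means were higher, with a median of 0.00. Of 40 tested assembly factors, 20 had a higher and 20 a lower mean, with a median of 0.01. Ndufaf2, which helps complete complex I, was at 20.4 ± 0.953 FPKM in mutant and 17.0 ± 0.871 FPKM in control (0.24 ± 0.09, limma adjusted p = 0.593), and Cox19, a copper handling factor of complex IV, was at 20 ± 1.10 and 22.9 ± 0.777 FPKM. The assembly factors had a pair C median of 0.01, where the general subunits had 0.25.

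Genes of the mitochondrial ribosome, which translates the subunits encoded in mitochondrial DNA, stood close to the subunits in their medians. Of 74 means, 63 were higher in mutant, against 54.6% of all tested rows, or 54 without mutant C. The median was 0.13, or 0.06 without mutant C, with pair medians of 0.04, 0.08 and 0.23. At an unadjusted p under 0.05 in limma, 6 were higher, against 3.81% of all tested rows. The mutant libraries lay above all controls for 15 of the 74, against 7.12% of all tested rows and 7 general subunits. Mrpl42 was at 35.6 ± 2.65 FPKM in mutant and 28.2 ± 2.74 FPKM in control, and Mrps18a at 49.6 ± 1.61 and 39.8 ± 4.74 FPKM. Among the citric acid cycle genes, 15 of 18 means were higher in mutant, with a median of 0.05 and 0 at an unadjusted p under 0.05 in limma. Without mutant C, 13 of 18 were higher, with a median of 0.03. Idh3g and Idh3b, subunits of the NAD-dependent isocitrate dehydrogenase, differed by 0.16 ± 0.10 and 0.14 ± 0.10.

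Regulators of mitochondrial biogenesis had 12 of 16 means higher in mutant, or 9 without mutant C, and a median of 0.10. Myc, a transcription factor that drives growth and mitochondrial genes, had 8.03, 15.1 and 24.9 FPKM in mutant libraries A to C, against 6.30, 7.75 and 8.64 FPKM in control libraries A to C (0.87 ± 0.36, limma adjusted p = 0.617). Mutant C was the highest, and mutant A lay within the control range. Ssbp1, which binds single-stranded mitochondrial DNA, differed by 0.12 ± 0.09. S phase genes had 18 of 18 means higher in mutant, against 54.6% of all tested rows. Of the 18, 16 had an unadjusted p under 0.05 in limma, against 3.81% of all tested rows higher at that level, and 0 passed the adjusted threshold. Their pair medians were 0.20, 1.10 and 0.68, so pair B stood highest there and pair C in the subunits. Cdt1, a licensing factor of DNA replication, was at 20.3 ± 3.67 FPKM in mutant and 10.7 ± 1.85 FPKM in control (limma adjusted p = 0.262), and Mcm7, of the replicative helicase, at 40.4 ± 5.71 and 25.5 ± 2.33 FPKM. The part of Myc and of S phase genes in the subunit values was not tested.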

How the data were processed

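Endothelial cells sorted from lungs were profiled by poly(A) RNA-seq in 3 mutant and 3 control libraries. The authors deposited FPKM by library and gene symbol in 1 table. Their log2 fold change and their p-value stand in further columns, hold spreadsheet errors in some rows, and were used only where the authors' deposited table is named. Reads were aligned to mm10 with TopHat2 2.0.14 and Bowtie2 2.2.3, per the submitters' processing notes, which also name Cufflinks 2.2.1 and Cuffdiff. Strand use and the annotation are not given in the sources used here; overlapping genes are therefore uncertain. The table holds no counts, which left count models out, and the depth is unknown beyond relative values. The labels do not say that replicates come from separate animals, so the spread behind each p-value may be technical.

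The limma package, version 3.58.1, was run under R 4.3.3 on log2(FPKM + 1) values with a trended empirical Bayes step. It covered the 11693 rows averaging 1 FPKM or more, with Benjamini-Hochberg adjustment over all of them and a threshold of 0.05. Fold changes on that scale understate the change of low genes. The method was tested on simulated data with changes far larger than those of the general subunits, so that test does not cover differences of their size. Levels carry the SD, and fold changes the SE. Ratios of tissue to general forms were compared by an exact permutation test over samples. Promoter sequences and positions come from RefSeq on GRCm38.p6, the build called mm10; 83 members matched, 3 of them by a synonym. The longest transcript lengths come from the GENCODE annotation. A deviation is a library's log2(FPKM + 1) minus the row's mean over the 6 libraries.

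The letters A, B and C in the titles were checked as pairs. Deviations from group means correlated, between same-letter libraries, at 0.361, 0.268 and 0.191, all above the threshold of 0.1, so the pair is used as a block in an alternative fit. The pairing was thus taken from these same data, and the p-values of the block fit rest on it.

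Members and lists were chosen with earlier results of these data known. The named members are those of lowest p in each complex, those of highest and lowest level in each complex, and all forms in the isoform pairs, besides at most 2 low-p genes from each other list. Other members are named to list a count, and 1 member is not reported here by name. The hypoxia motif was added after seeing the data. Alternatives were another pseudocount, other filters, 2 rescalings, no trend, the block and leaving out each library.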

Additional observations from a re-analysis of the deposited data

How the results depend on the processing

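No member passed the adjusted threshold under any alternative run. Over all rows, 16 were called lower: the count was 10 with a mean of at least 5 FPKM, 6 with the replicate block, and 5 to 9 when 1 library was left out. Rows called higher numbered 0, and 0 to 2 when 1 library was left out. Members at an unadjusted p under 0.05 numbered 3, and 1 to 7 when 1 library was left out. The members' median log2 fold change of 0.11 was 0.016 to 0.15 when 1 library was left out, lowest without mutant C.

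Small differences changed sign. After quantile normalization Cox6a1 was at -0.03, Cox8a at -0.02 and Uqcrb at -0.03. Leaving out 1 library gave -0.09 to 0.19 for Cox6a1, -0.09 to 0.10 for Cox8a, -0.06 to 0.17 for Uqcrb, -0.12 to 0.03 for Sdhb, -0.02 to 0.10 for Sdhc, -0.04 to 0.10 for Ndufa11, -0.23 to 0.07 for Ndufa3 and -0.04 to 0.09 for Uqcrfs1. The ratio of Cox7a1 to Cox7a2 was -0.31 with a pseudocount of 1, and -1.06 to 0.74 when 1 library was left out; that of Cox6b2 was -0.17 to 0.51 and that of Cox8b -0.96 to 0.25. The cause was not tested. Cox4i2 and Ndufa4l2 stayed lower in mutant in every alternative, at -1.61 to -0.82 and -1.37 to -0.79. With 3 libraries a group and unknown depth, differences of the size of the general subunits' are near their SE and were not detectable gene by gene.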
